A study of Ovis aries with 14 samples.

Results

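The genes described here are those highest in the lung after 3 days of invasive ventilation of preterm lambs: 87 of the 27054 genes counted, each higher in every invasively ventilated animal than in any other animal of the study and meeting limits on abundance and size given below. The study sequenced RNA of the right lower lobe of the lung from 14 sheep (Ovis aries) in 5 groups, and the deposited values are read counts per gene. Invasive mechanical ventilation (IMV, n = 3, labelled gd134) means that the preterm lamb was intubated. Term lungs (n = 2, labelled gd150) came from lambs labelled as untreated, and the labels do not say whether these had breathed air. Noninvasive respiratory support (NRS, n = 3, labelled gd134) was given to preterm lambs through a mask, without intubation, also for 3 days. Untreated fetal lungs were taken near the age at which support ended (fetal end, n = 3, ages given as gd134, gd135 or gd136) and near the age at which it began (fetal start, n = 3, ages given as gd127, gd128 or gd131). Every library had its own animal identifier, so replicates were separate animals. No transgene or deletion is labelled in any group.

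As background, the preterm lung is at a stage at which its distal air spaces are still being divided into alveoli. Positive pressure through a tracheal tube stretches this tissue, and prolonged invasive ventilation is known in preterm infants and lambs for inflammation, abnormal elastin deposition and arrested alveolar formation. Support through a mask was introduced to lessen that injury. The 87 genes could not be set against these processes by name, because the files give Ensembl identifiers only and the reference used for names matched 0 of them. For the same reason the tissue could not be checked against marker genes.

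The genes were chosen from these same counts, as CPM, which is a gene's count per 1000000 counts of its library. Of all genes, 13364 had a mean over the 14 libraries of at least 2 and under 1000 CPM. In 144 of these every IMV library was above all 11 other libraries, and 51 of the 144 were then left out because the IMV mean was under 1.4 times the mean of the other 11. A further 6 genes were left out because every NRS library was above every fetal library. A last step, for genes with 5 or fewer counts in each NRS library, removed 0 genes. The separation from the other lambs and the size of the IMV excess are therefore conditions of choice, given below as a description without a test.

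The excess after IMV was mostly moderate. The IMV mean was 1.401 to 3.88 times the mean of the other 11 libraries, with a median of 1.72 and quartiles of 1.52 and 2.07. In 23 of the 87 genes it was at least 2 times, and in 7 at least 3 times. Set against each group, the median ratio of the IMV mean was 1.79 to term, 1.58 to NRS, 1.84 to fetal end and 1.75 to fetal start. The gap between the animals was narrower than these means: the lowest IMV library was a median of 1.07 times the highest other library, and in 56 genes this ratio was under 1.1. In bulk tissue a change in the number of cells of a type and a change in RNA per cell cannot be told apart.

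**Figure D1:**
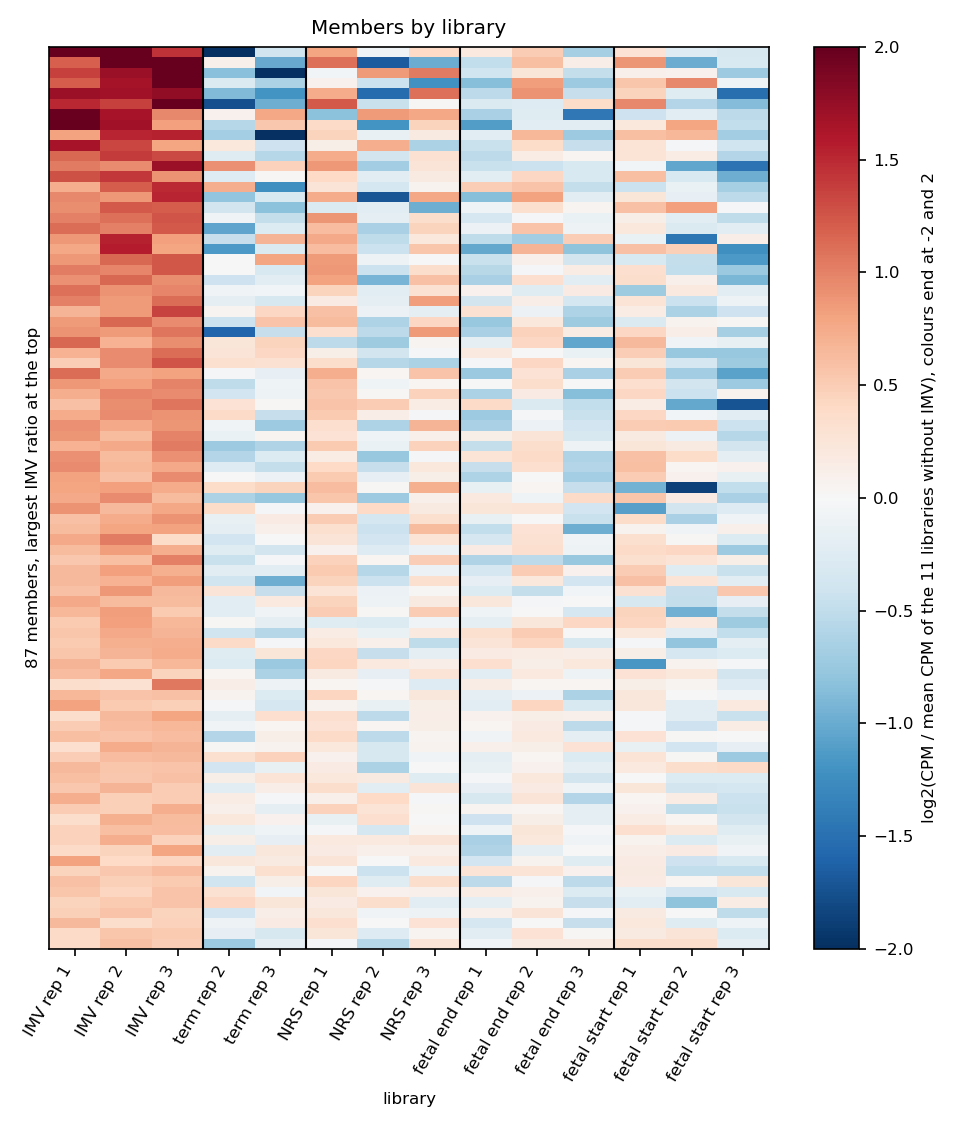
Each row is one of the 87 genes and each column a library, with groups parted by black lines. Colour is the log2 ratio of a gene's CPM to its mean over the 11 libraries without IMV. The IMV columns are red throughout because the genes were chosen for that, and NRS replicate 1 carries the most red among the others.

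Most of the genes were of moderate or low abundance, within the range of 2 to under 1000 CPM that the choice allowed. Their mean over all libraries ran from 2.09 to 320.7 CPM with a median of 15.8 CPM. It was under 10 CPM in 32 genes, 10 to under 100 CPM in 46 and 100 CPM or more in 9. Together they made up 0.492%, 0.516% and 0.517% of all counts in IMV replicates 1, 2 and 3. In the other libraries they made up 0.235% (fetal start replicate 3) to 0.383% (NRS replicate 1) of the counts.

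Many genes lay close to the limits of the choice. The smallest ratio of the IMV mean to the other 11 that was accepted was 1.401, and the largest that was refused was 1.397. For the separation of the animals the nearest accepted gene had a ratio of lowest IMV to highest other library of 1.0008, and the nearest refused one 0.99996. Within 5% of that limit lay 33 accepted genes and 42 refused genes that met the other conditions. The lowest accepted mean was 2.09 CPM, against 1.92 CPM for the nearest gene below the level limit. At or above the upper limit of 1000 CPM, 2 genes met the other conditions and were refused. In the 6 genes refused for NRS the lowest NRS library was 1.03 to 1.38 times the highest fetal library, and the nearest accepted gene stood at 0.987.

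The 2 genes with the widest gap between IMV and all other lambs were both of low abundance. ENSOARG00000002978 had 8.78, 10.5 and 5.92 CPM in the IMV libraries, against 0.408 and 1.65 CPM at term, 3.73, 2.06 and 2.85 CPM with NRS, 2.48, 3.09 and 1.37 CPM at fetal end, and 2.64, 1.81 and 1.73 CPM at fetal start. The lowest IMV library was 1.59 times the highest other one, NRS replicate 1, and the lowest value, in term replicate 2, rests on 12 counts. Its IMV mean was 8.40 ± 2.32 CPM (SD, n = 3), which is 2.92 times the NRS mean of 2.88 ± 0.835 CPM (SD, n = 3) and 8.18 times the term mean of 1.03 ± 0.877 CPM (SD, n = 2).

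ENSOARG00000001545 had 10.2, 10.04 and 10.7 CPM in the IMV libraries, against 1.70 and 1.37 CPM at term, 5.24, 1.07 and 6.71 CPM with NRS, 2.17, 5.85 and 2.26 CPM at fetal end, and 4.23, 2.62 and 1.09 CPM at fetal start. The IMV libraries were close to each other, while the NRS libraries were spread widely. NRS replicates 1 and 3, fetal end replicate 2 and fetal start replicate 1 were the high libraries of their groups. The IMV mean of 10.3 ± 0.319 CPM was 2.37 times the NRS mean of 4.34 ± 2.92 CPM and 3.01 times the fetal end mean of 3.43 ± 2.10 CPM (SD, n = 3 each).

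**Figure D2:**
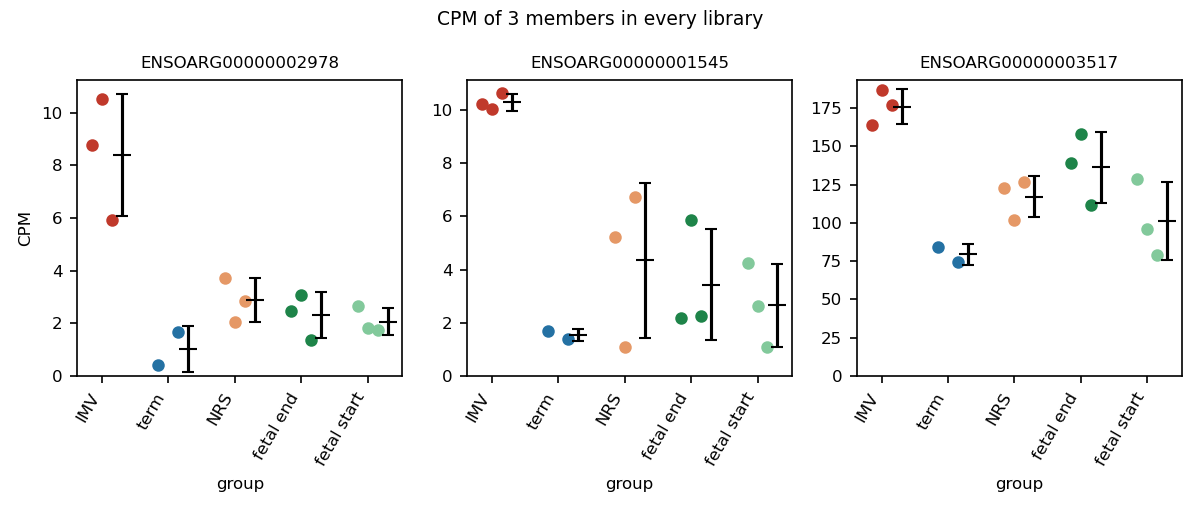
CPM (linear axis from 0) of 3 of the genes in each library, by group. Points are single animals and the bar beside them is the mean ± SD of the group (n = 3, term n = 2). All IMV points lie above all others in each panel, and single NRS and fetal animals lie well above their group's lowest animal.

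The same animals were high across most of the 87 genes, which the choice did not ask for, since it treated the animals of a group alike. NRS replicate 1 was above NRS replicate 2 in 79 of the 87 genes (90.8%), with a median ratio of 1.46, where it was higher in 53.0% of the 13364 genes of the same abundance range. NRS replicate 3 was above NRS replicate 2 in 69 genes (79.3%), against 44.7% of all genes in the range. Within fetal end, replicate 2 was above replicate 1 in 74 genes and above replicate 3 in 72, where 55.3% and 62.6% of all genes in the range were. Within fetal start, replicate 1 was above replicate 2 in 71 genes and above replicate 3 in 74, where 55.2% and 48.4% of all genes in the range were. Term replicate 2 was above replicate 3 in 41 genes (47.1%) and below it in 46 (52.9%), where 49.2% and 50.8% of all genes in the range were. Genes that vary together are not independent of each other, so these counts describe the animals and carry no test.

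The within-group order was also seen after TMM scaling, a correction of library totals for a few very abundant genes. On that scale NRS replicate 1 was above replicate 2 in 78 genes, fetal end replicate 2 was above replicates 1 and 3 in 69 and 70, and fetal start replicate 1 was above replicates 2 and 3 in 69 and 74. Shares of all genes were not worked out on that scale. Sequencing depth ran partly along with this order. Library totals were 27869009, 23267448 and 25919561 counts for NRS replicates 1, 2 and 3, and 26215262, 26855310 and 24817865 for fetal end replicates 1, 2 and 3. They were 27659261, 28194734 and 26572091 for fetal start replicates 1, 2 and 3, where the library with the highest level was not the deepest. IMV replicates 1, 2 and 3 had 28006053, 31586235 and 27874232 counts, each above every NRS and fetal end library. The term libraries and fetal start replicate 2 were deeper than IMV replicates 1 and 3. The part of depth in the order of the animals or in the IMV excess was not tested.

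**Figure D3:**
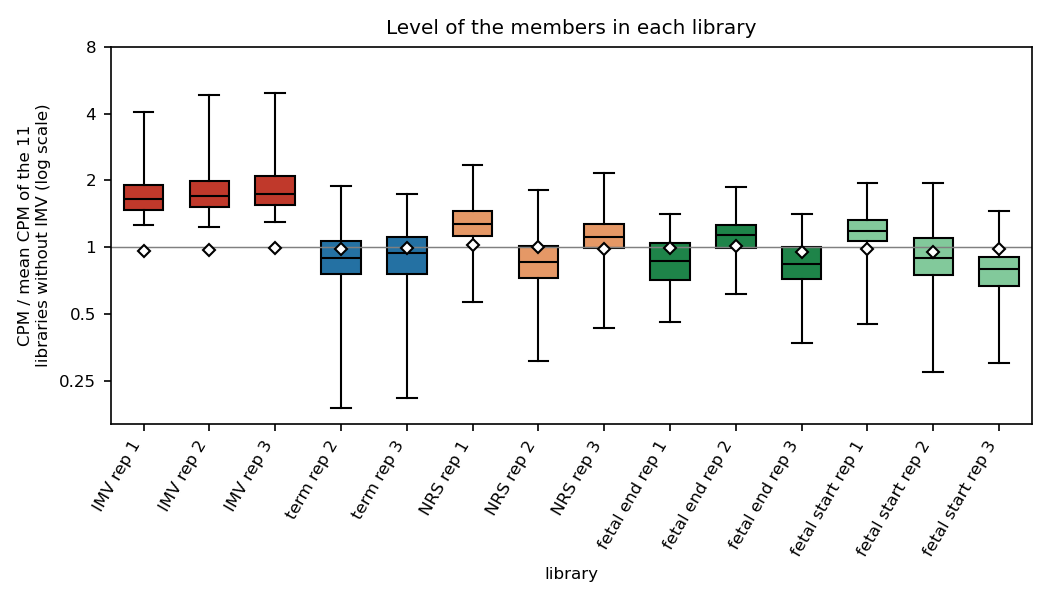
For each library the box shows the quartiles, the line the median and the whiskers the range, over the 87 genes, of CPM divided by the mean CPM of the 11 libraries without IMV (log2-spaced axis). White diamonds are the median of the same ratio over the 13364 genes in the abundance range, which stay between 0.952 and 1.02.

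Expressed against the mean of the 11 libraries without IMV, the median gene stood at 1.65, 1.71 and 1.74 in IMV replicates 1, 2 and 3. In NRS replicates 1, 2 and 3 it stood at 1.27, 0.861 and 1.11. In term replicates 2 and 3 it stood at 0.893 and 0.937. At fetal end it was 0.868, 1.13 and 0.842, and at fetal start 1.18, 0.891 and 0.799, in replicates 1, 2 and 3. NRS replicate 1 thus had 74.9% of the gene's own IMV mean in the median, and NRS replicate 2 had 50.4%, a value inside the range of the fetal end libraries (47.9% to 68.2%).

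When the highest of the 11 libraries was noted for each gene, it was NRS replicate 1 in 36 of the 87 (41.4%), against 7.92% of all genes in the abundance range. Fetal start replicate 1 was highest in 12 (13.8%, against 7.84% of all genes in the range) and NRS replicate 3 in 9 (10.3%, against 6.02%). Fetal end replicate 2 was highest in 8 (9.20%), close to its 9.17% of all genes in the range. The other 7 libraries together were highest in 22. After TMM scaling NRS replicate 1 was highest in 28 genes, NRS replicate 3 in 13, fetal start replicate 1 in 12 and fetal end replicate 2 in 5. Shares of all genes were not worked out on the TMM scale. On library totals the term libraries were each highest in 4.60% of the 87, against 15.7% and 12.8% of all genes in the range. Genes with a term library above the lowest IMV library had been refused, so that share is not free of the choice.

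**Figure D4:**
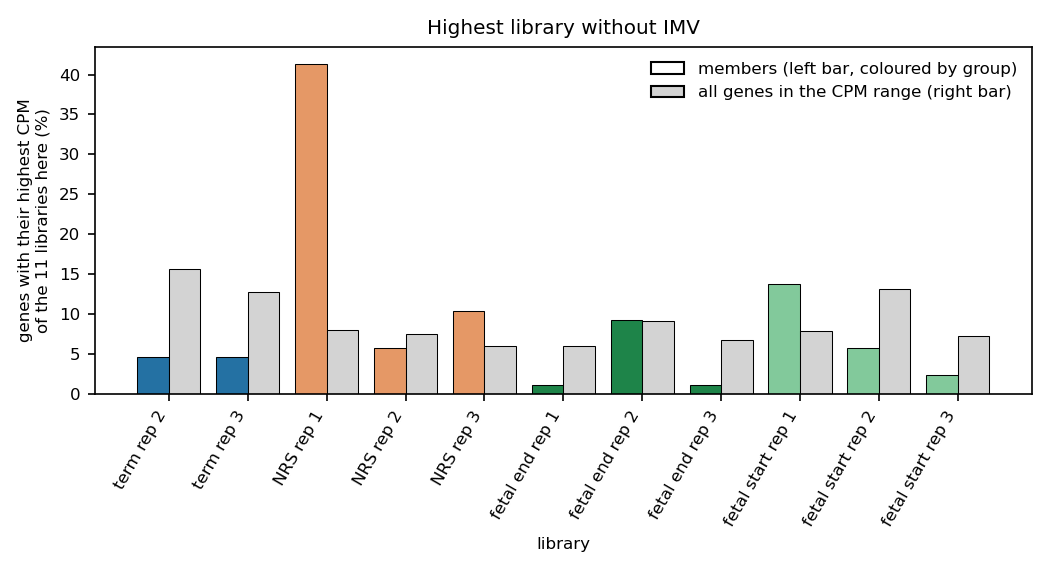
Share of genes (%, linear axis from 0) whose highest CPM among the 11 libraries without IMV falls in each library, for the 87 genes (left bars, coloured by group) and for the 13364 genes in the abundance range (grey bars). NRS replicate 1 reaches 41.4% of the 87 genes and 7.92% of all genes.

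Among the IMV libraries the highest was a median of 1.21 times the lowest, with quartiles of 1.13 and 1.36. The choice asked the lowest IMV library to exceed all others, so it fixed this spread in part. Replicate 3 was the highest in 40 genes, replicate 2 in 28 and replicate 1 in 19, where the shares of all genes in the range were 42.3%, 28.3% and 29.4%. Animal identifiers end in 17 for IMV replicates 1 and 2 and fetal start replicate 1, in 19 for fetal end, and in 18 for all others. Among identifiers ending in 18, IMV replicate 3 was a median of 1.84 times the mean of the term libraries, 1.597 times that of the NRS libraries and 2.03 times that of fetal start replicates 2 and 3. Among those ending in 17, the mean of IMV replicates 1 and 2 was a median of 1.42 times fetal start replicate 1. What the suffix stands for is not labelled. Fetal end shares no suffix with IMV or any other group. Differences from fetal end, in the comparisons below too, therefore cannot be told apart from differences by suffix.

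Comparisons among the groups without IMV ask whether these genes also move with noninvasive support, with term age or with age in utero. The choice did not use the order of the term and fetal groups. It did refuse genes in which any term, fetal or NRS library reached the lowest IMV library. Shares of the 87 genes that differ between these groups, set beside all genes, are therefore not free of the choice. The choice also used NRS against the fetal groups in part, by refusing genes with all NRS libraries above all fetal ones. That limit keeps some NRS values low, so it also touches term against NRS in part. Tests used edgeR's quasi-likelihood F test on all 14 libraries, with Benjamini-Hochberg adjustment over the 17069 genes that passed a filter on low counts and a threshold of 0.05. All 87 genes passed that filter.

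After NRS 0 of the 87 genes differed from fetal end by the adjusted edgeR test, where 0.428% of all tested genes did. The choice had refused genes with every NRS library above every fetal library. This count and the shares that follow are therefore a description. At an unadjusted p under 0.05 there were 9, all higher after NRS (10.3% of the 87), against 14.3% of all genes, with 7.46% of all genes higher. The median log2 fold change was 0.21 (quartiles -0.083 and 0.45), against -0.012 over all genes, and 62 genes had a positive and 25 a negative one. The NRS and fetal end libraries did not overlap in 8 of the 87 genes (9.20%), against 22.0% of all genes in the abundance range. The size of the median depended on single animals, while it stayed positive with any NRS or fetal end library left out. It was 0.085 without NRS replicate 1 and 0.13 without NRS replicate 3. Leaving out fetal end replicate 2 gave 0.32, and leaving out fetal end replicate 3 gave 0.11.

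DESeq2, run as another tool, called 2 of the 87 genes higher after NRS than at fetal end, where it called 3.83% of all genes. They are named here after their values were seen. ENSOARG00000011867 had 7.61, 5.67 and 7.79 CPM with NRS, against 3.62, 3.84 and 3.26 CPM at fetal end. The groups did not overlap, and the log2 fold change was 0.95 ± 0.21 (SE, DESeq2 adjusted p = 0.000605), against an edgeR adjusted p of 0.0605. At fetal start it had 6.91, 6.67 and 5.98 CPM, inside the range of the NRS libraries. This gene had 8.03, 8.39 and 11.2 CPM with IMV, so that NRS replicates 1 and 3 came close to the lowest IMV library.

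ENSOARG00000008103 had 30.03, 22.8 and 25.8 CPM with NRS, against 19.6, 20.4 and 14.3 CPM at fetal end, again without overlap. Its log2 fold change was 0.51 ± 0.16 (SE, DESeq2 adjusted p = 0.0437; edgeR adjusted p = 0.161). With IMV it had 35.3, 33.1 and 33.2 CPM. It had 26.0, 22.3 and 21.15 CPM at fetal start and 23.3 and 18.5 CPM at term, and both groups overlapped NRS.

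At term 1 of the 87 genes was lower than at fetal end and 0 were higher by the adjusted edgeR test, where 5.88% of all tested genes passed (2.09% lower). At an unadjusted p under 0.05 there were 10 genes (11.5% of the 87), against 26.0% of all genes. The median log2 fold change was -0.030, against -0.014 over all genes, with 42 positive and 45 negative values between -1.27 and 1.19. The median was positive, 0.094, without fetal end replicate 2, and -0.071 without term replicate 2. With the replicate number as a block it was 0.034. Term and fetal end libraries did not overlap in 22 of the 87 genes (25.3%), against 44.1% of all genes in the abundance range.

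The gene that was lower, ENSOARG00000003517, had 84.2 and 74.6 CPM at term, against 139, 158 and 111 CPM at fetal end. It had 164, 187 and 177 CPM with IMV, 123, 102 and 126.7 CPM with NRS, and 129, 95.9 and 78.8 CPM at fetal start. The term libraries were below every other library except fetal start replicate 3, which lay between them. The log2 fold change of term against fetal end was -0.75 ± 0.19 (SE, edgeR adjusted p = 0.0411). DESeq2 also called it (DESeq2 adjusted p = 0.00353), where it called 14.3% of all genes. It no longer passed when any term or fetal end library was left out, with log2 fold changes from -0.86 to -0.65 and edgeR adjusted p from 0.0656 to 0.181. Nor did it pass without the IMV libraries in the fit, at a log2 fold change of -0.76 (edgeR adjusted p = 0.0695), or with the replicate number as a block, at -0.71 (edgeR adjusted p = 0.0742). It passed with RLE scaling and without a filter on low counts (edgeR adjusted p of 0.0389 and 0.0454). The identifier suffix as covariate could not test this comparison. It marked suffix 17, which no term or fetal end animal has, and left the log2 fold change at -0.75.

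Between fetal end and fetal start 0 of the 87 genes differed by the adjusted edgeR test, where 0.00586% of all tested genes, a single gene, did. At an unadjusted p under 0.05 there were 10, split evenly between higher and lower (11.5% of the 87), against 7.74% of all genes. The median log2 fold change was -0.033, against 0.0041 over all genes, with 40 positive and 47 negative values. The sign of the median depended on single animals: it was 0.13 without fetal start replicate 1 and -0.18 without fetal start replicate 3. Leaving out fetal end replicate 1 gave 0.065, and leaving out fetal end replicate 2 gave -0.19. With all animals kept and the identifier suffix as covariate the median was 0.075. That covariate marked fetal start replicate 1 and IMV replicates 1 and 2, so it drew on differences among the IMV libraries too. No fetal end animal has the marked suffix, so a dependence on suffix cannot be read from this value. The groups did not overlap in 10 of the 87 genes (11.5%), against 10.7% of all genes in the abundance range. DESeq2 called 1 gene (0.685% of all genes), and it was again ENSOARG00000011867. The 3.62, 3.84 and 3.26 CPM of this gene at fetal end stood below its 6.91, 6.67 and 5.98 CPM at fetal start, a log2 fold change of -0.89 ± 0.21 (SE, DESeq2 adjusted p = 0.00841; edgeR adjusted p = 0.352). In term lungs it had 4.04 and 5.36 CPM, between the fetal groups.

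In term lungs 0 of the 87 genes differed from NRS by the adjusted edgeR test, where 0 of all 17069 tested genes did (0%). At an unadjusted p under 0.05 there were 12 (13.8% of the 87), all lower at term, against 10.4% of all genes, made up of 5.05% lower and 5.31% higher. The median log2 fold change was -0.17 (quartiles -0.49 and 0.035), against 0.0050 over all genes, and 61 of the 87 values were negative. Without NRS replicate 1 this median was -0.082, and without NRS replicate 2 it was -0.29. With the replicate number as a block it was -0.093. The groups did not overlap in 16 of the 87 genes (18.4%), against 28.8% of all genes in the abundance range.

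DESeq2 called 1 of the 87 genes in this comparison, ENSOARG00000017171, where it called 0.785% of all genes. It had 2.17 and 0.806 CPM at term, against 3.73, 6.96 and 7.95 CPM with NRS. The log2 fold change was -2.02 ± 0.48 (SE, DESeq2 adjusted p = 0.0142; edgeR adjusted p = 0.388). This gene had 9.96, 12.8 and 19.2 CPM with IMV, 2.94, 4.58 and 2.78 CPM at fetal end and 4.16, 4.11 and 2.33 CPM at fetal start. Its IMV mean was 9.39 times its term mean.

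**Figure D5:**
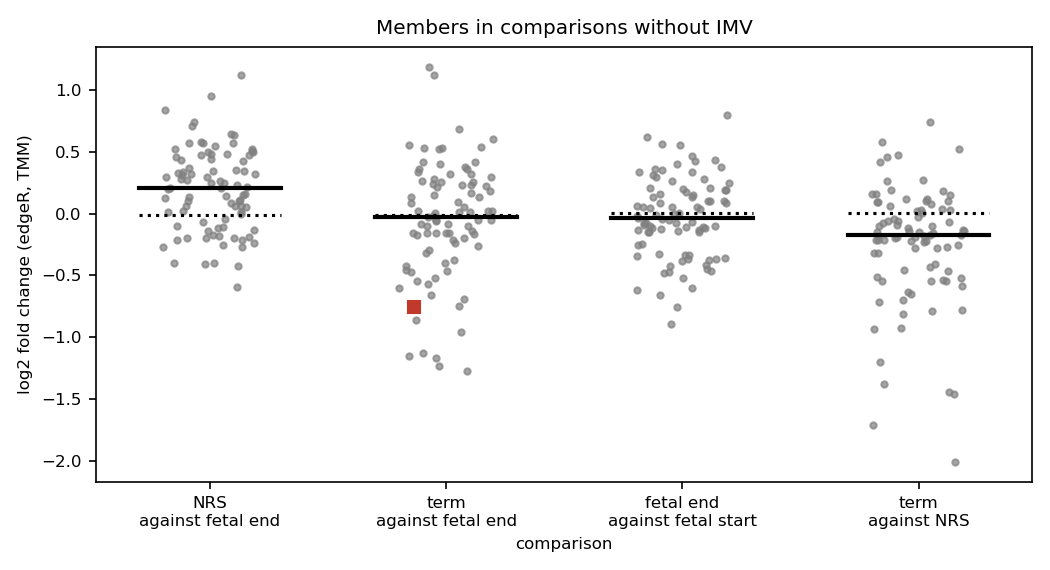
Each point is the log2 fold change (edgeR, TMM scaling) of one of the 87 genes in the 4 comparisons without IMV. Thick lines are medians over the 87 genes, dotted lines medians over all 17069 tested genes, and the red square is ENSOARG00000003517, which passed the adjusted test. The median over the 87 genes is 0.21 for NRS against fetal end and -0.17 for term against NRS.

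Ordered by group means without IMV, NRS was the highest of the 4 groups in 46 of the 87 genes (52.9%), against 20.2% of all genes in the abundance range. It was the highest although genes with all NRS libraries above all fetal ones had been refused. Term was the lowest in 36 genes (41.4%), against 35.9% of all genes in the range. The mean of the NRS group carries the spread between its animals, since NRS replicate 1 was above the mean of the 11 libraries in 78 of the 87 genes, replicate 3 in 64 and replicate 2 in 24.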

How the data were processed

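The deposited table, made by the authors, gives raw counts per gene under Ensembl identifiers. All 14 sample columns hold whole, unnormalized counts, as the values show, so none of the deposited columns holds an estimated count. Tools named in the submitters' processing notes, without role or order, are featureCounts 1.6.3, Subread, STAR 2.7.0f, cutadapt 1.16, bcl2fastq and DESeq2 1.22.2, and the build is Oar_v3.1. The labels' protocols name a stranded total RNA kit. How reads were assigned to a strand or to several places, and with which annotation release, was not given in the sources used here, so overlapping, antisense and near-identical genes are uncertain. The name table (ARS-UI_Ramb_v3.0) has Ensembl identifiers in 0 of 35057 rows. The 17 marker and pathway lists (219 symbols, 0 in the table) were not tested, and no sequence is shown.

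Totals per library lay between 23267448 and 31586235 counts. Titles gave the groups and replicate numbers. Replicates of a group differed by a chi-square per degree of freedom of 26.5 to 83.9, so none repeated another. CPM uses the library total. Fold changes come from edgeR 4.0.16 in R 4.3.3 (TMM, filterByExpr, 5 group means, 9 residual degrees of freedom), tested on simulated data first. The SE of edgeR is the size of the log2 fold change over the square root of F. Where an SE is printed with a DESeq2 adjusted p, it and its fold change are those of DESeq2. The 87 genes and the lists were chosen with earlier results of these data known. Named genes are the 2 with the largest ratio of lowest IMV to highest other library, and up to 2 per direction with the smallest p among those past the threshold of a comparison. The DESeq2 calls were added after their values were seen. As alternatives, DESeq2 1.42.0, RLE and no filter were tried, as were fits without IMV or of 2 groups. Others had the replicate number as a block, the identifier suffix as covariate, or each library left out. The suffix covariate marked 17 against the rest.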

Additional observations from a re-analysis of the deposited data

How the results depend on the processing

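The number of genes meeting the conditions was 87. It was 23 with a limit of 2 times and ran from 67 (without NRS replicate 2) to 258 (without IMV replicate 1) when each library was left out in turn. It was 132 without IMV replicate 2 and 164 without IMV replicate 3, where only the IMV libraries that were kept had to lie above the others. DESeq2 size factors gave 105 genes and TMM scaling 108, each with 85 of the 87. DESeq2 called 2 of the 87 genes for NRS against fetal end, 1 for fetal end against fetal start and 1 for term against NRS, where edgeR called 0 in each, and for term against fetal end it called the same gene as edgeR. For term against fetal end the single call was lost (0 genes) without the IMV libraries, in a fit of only the 2 groups and with the replicate number as a block, and in each fit that left out a library (0 to 0 genes), while its log2 fold change stayed between -0.86 and -0.65; the cause was not tested. DESeq2, RLE scaling and no filter kept it. The suffix covariate could not test it, because no term or fetal end animal has the suffix that the covariate marked. In the other 3 comparisons edgeR called 0 of the 87 in every alternative run with it, the replicate block included. Among these, the suffix covariate could bear only on fetal end against fetal start, since no NRS animal has the marked suffix either. Same-numbered libraries share no animal by their identifiers. Correlations of their deviations ran from -0.152 to 0.288 over 26 pairs, and 8 of 14 libraries correlated best with a library of their own number. How many would do so without a link by number was not worked out. The block moved the calls over all genes for NRS against fetal end from 73 to 15 and for term against fetal end from 1004 to 450. With 2 or 3 animals a group, a lone remaining term library is assumed to vary like the other groups.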
